A study of Mus musculus with 6 samples.

Results

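The genes of WNT signaling were followed through 6 mouse brain tumors. The set held 54 of the 24537 rows of the deposited count table. It was chosen by a rule on symbols that used no measured value, though earlier results of these data were known. It took every row named as a WNT ligand or a Frizzled receptor and added 25 named co-receptors, inhibitors, transducers and target genes. By role there were 19 ligands, 12 receptors, 7 secreted inhibitors, 5 core transducers and 11 target genes.

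The tumors were raised in CD-1 IGS mice by in utero electroporation, in which plasmids are pulsed into cells of the embryonic brain. All 6 carried PdgfraD482V, a mutant receptor of platelet-derived growth factor, and DNp53, a dominant-negative p53. The 3 libraries titled FOXR2 also received FOXR2, a forkhead transcription factor, and the 3 titled Control did not. No label names the promoters of the constructs or the age of the mice, and none says that each tumor is from its own animal. The p-values therefore reflect only how far these 6 samples spread, which may be technical. The sample sheet deposited beside the counts gives the other group for 6 of 6 libraries. The titles were followed, libraries are called by their titles, and every direction below turns round if the sheet is right.

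Depth was 13429489 to 17927025 counts per library, so that 3 counts, the floor used here, equalled 0.174 to 0.219 CPM (counts scaled to library size with TMM factors). Such floors cover counting error only. Foxr2 had 1 to 22 counts in the libraries titled FOXR2 and 4 to 10 in those titled Control, which did not separate the titles. Markers of oligodendrocyte precursors were abundant in every library, and their summed level was 7801 to 9924 CPM in the FOXR2 group and 6009 to 6980 in the Control group, the supplied Pdgfra included. FOXR2 replicate 2 stood apart. Its 10 markers of microglia and macrophages summed to 1065 CPM, against 1.43 to 4.56 in the other libraries. The same library was highest for markers of fibroblasts and meninges (42.8 CPM against 1.74 to 3.43) and of choroid plexus (14.7 against 0.12 to 0.536). FOXR2 replicates 1 and 3 and Control replicate 1 read as male and the other 3 as female, taken from Xist and Y-linked genes.

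WNT ligands are lipid-modified secreted proteins that bind Frizzled receptors together with Lrp5 or Lrp6. Binding stops the complex of Axin, Apc and kinases from destroying beta-catenin (Ctnnb1), which then enters the nucleus and works with TCF/LEF factors on target genes. Many of these targets, Axin2 and Nkd1 among them, encode proteins that damp the same signal. In the central nervous system, Wnt7a and Wnt7b made by neural and glial precursors act on blood vessels as well as on the glial lineage.

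Among the target genes, Nkd1 alone was called at an edgeR adjusted p under 0.05, and Axin2 had the next smallest p without being called. Wnt7a, Fzd3 and Sfrp1, of other roles, had a smaller p than Axin2 and were not called either. The promoters of Nkd1 and Axin2 are shown beside that of Sp5, another target. In the windows searched, Sp5 carries a searched form of the DNA motif bound by TCF/LEF factors and they do not. The motif was searched as CTTTGAA or CTTTGAT on both strands, in RefSeq promoters of build GRCm38.p6 that run from 250 bases before each gene start to 50 after it. The 250 bases before the start are printed 5′ to 3′ on the gene's strand. Capitals mark the motif.
Nkd1, chr8:88527383-88527632, + strand: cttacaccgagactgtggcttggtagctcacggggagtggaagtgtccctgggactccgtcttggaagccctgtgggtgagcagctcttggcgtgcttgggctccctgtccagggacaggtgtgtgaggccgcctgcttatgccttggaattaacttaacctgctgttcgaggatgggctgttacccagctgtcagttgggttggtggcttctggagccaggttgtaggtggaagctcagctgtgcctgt
Axin2, chr11:108920099-108920348, + strand: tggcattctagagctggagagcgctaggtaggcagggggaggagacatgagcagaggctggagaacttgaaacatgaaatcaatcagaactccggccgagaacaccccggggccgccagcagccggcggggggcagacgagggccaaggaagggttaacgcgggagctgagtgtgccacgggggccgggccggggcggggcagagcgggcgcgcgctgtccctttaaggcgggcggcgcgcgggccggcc
Sp5, chr2:70474673-70474922, + strand: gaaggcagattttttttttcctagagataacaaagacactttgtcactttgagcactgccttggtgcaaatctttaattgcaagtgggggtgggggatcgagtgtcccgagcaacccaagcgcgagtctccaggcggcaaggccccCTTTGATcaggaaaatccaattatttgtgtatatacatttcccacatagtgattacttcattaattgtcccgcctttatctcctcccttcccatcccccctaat

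The motif of Sp5 began 104 bases before the gene start. Of the 36 members with a promoter entry, 4 (11.1%) held the motif, and of the 7 target genes with an entry, 1 did (14.3%). Among all 27025 genes with an entry the share was 9.88%. These shares are a description of short windows, and other forms of the motif and sites outside the windows were not searched. GC content was 58.4% for the printed stretch of Nkd1 with 6 CpG dinucleotides, 69.2% for Axin2 with 24 and 46% for Sp5 with 6.

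Across the 54 genes, 36 passed the filter on low counts and were tested. Nkd1 was the 1 member called, at a Benjamini-Hochberg adjusted p under 0.05 in edgeR's quasi-likelihood test, and it was higher in the FOXR2 group. Over all 13101 genes tested, 2.29% were called in either direction and 0.908% were called higher, so 1 of 36 (2.78%) is near the background. The fitted log2 fold change (FOXR2 minus Control) lay above 0 for 25 of the 36 members, and its median was 0.47. Over all genes tested 50.7% lay above 0, with a median of 0.01. At an unadjusted p under 0.05 there were 11 members (30.6%), against 24.9% of all genes tested. The groups did not overlap in 12 members (33.3%), where the background was 30.3%. Of these 12, 11 were higher in the FOXR2 group (30.6% of the tested members, against 13.1% of all genes tested). A member that passed the filter through 1 group alone had to differ, so these counts describe the tested members and not all 54.

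**Figure D1:**
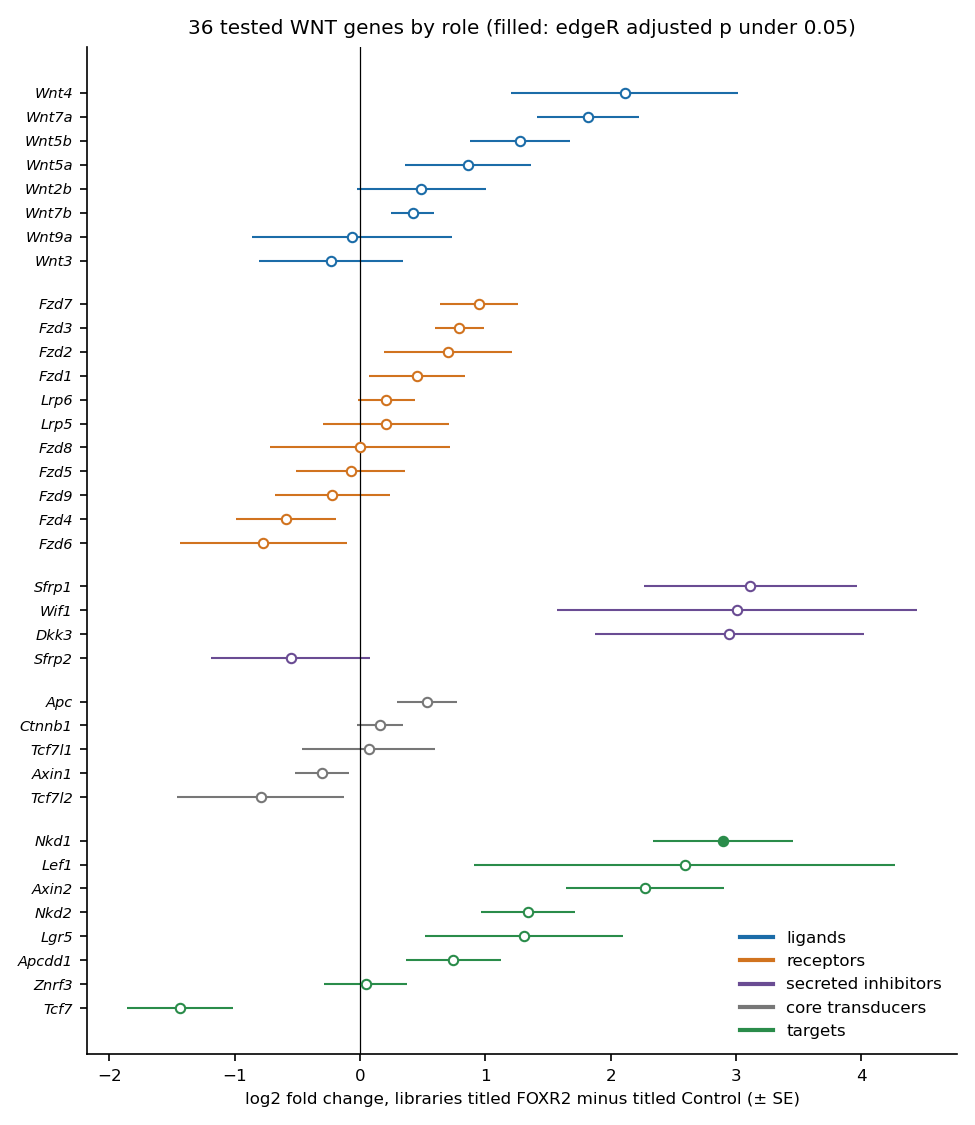
Fitted log2 fold change (x axis, libraries titled FOXR2 minus titled Control) with its standard error for the 36 tested members, grouped by role. Nkd1, the 1 filled point, passed an adjusted p of 0.05, and the points of Sfrp1, Wif1 and Dkk3 lie near 3 with long error bars.

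Among the target genes, Nkd1 rose and Axin2 had a fitted value of similar size that did not pass the test. Nkd1, which binds Dishevelled and damps the signal, was at 42.9, 16.3 and 69.7 CPM in the FOXR2 libraries and at 3.48, 7.09 and 6.68 in the Control libraries, each time in the order of replicates 1, 2 and 3, as in all such values that follow. The lowest FOXR2 library, replicate 2, lay above the highest Control library. The log2 fold change was 2.90 ± 0.56 (SE; edgeR adjusted p = 0.0489), or 7.46-fold, from means of 43.0 ± 26.7 and 5.75 ± 1.98 CPM (SD, n = 3 each). This call was narrow. The adjusted p was 0.0839 to 0.172 when FOXR2 replicate 1 or 3 or any Control library was left out and 0.0350 without FOXR2 replicate 2, 0.0506 with RLE factors and 0.0503 with total-count scaling.

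Axin2, the inducible scaffold of the destruction complex, stood at 17.7, 5.19 and 23.0 CPM in the FOXR2 libraries and 3.90, 4.05 and 1.51 in the Control libraries. FOXR2 replicate 2 was again the lowest of its group and lay just above the Control libraries. The log2 fold change was 2.27 ± 0.63 (edgeR adjusted p = 0.0920), which did not pass. Axin1, the constitutive paralog, had overlapping groups, at 34.1, 41.3 and 49.98 CPM against 52.8, 58.6 and 43.2 (log2 fold change -0.30 ± 0.21, edgeR adjusted p = 0.422). Within each library, which removes depth, there were 51.9, 12.6 and 46.0 Axin2 counts per 100 Axin1 counts in the FOXR2 libraries. The Control libraries had 7.39, 6.92 and 3.50. Within males, Axin2 was 17.7 and 23.0 CPM in the FOXR2 libraries and 3.90 in the Control library, and Nkd1 was 42.9 and 69.7 against 3.48. Within females, Axin2 was 5.19 against 4.05 and 1.51, and Nkd1 was 16.3 against 7.09 and 6.68. The only female FOXR2 library is replicate 2, which stood apart in its markers of microglia, fibroblasts and choroid plexus. In the FOXR2 group, sex and the make-up of that library therefore cannot be told apart. With animal sex as a covariate their log2 fold changes were 2.60 for Nkd1 and 1.65 for Axin2 (edgeR adjusted p = 0.158 and 0.223).

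Nkd2, the paralog of Nkd1, was less abundant, at 6.33, 4.998 and 3.72 CPM in the FOXR2 libraries and 2.10, 1.85 and 1.98 in the Control libraries. Its groups did not overlap and the Control libraries were close to each other (log2 fold change 1.34 ± 0.38, edgeR adjusted p = 0.0945). The order of its FOXR2 libraries was not that of Nkd1, since replicate 3 was the lowest for Nkd2 and the highest for Nkd1. Apcdd1, a membrane protein that binds WNT and blocks it, stood at 9.46, 10.1 and 12.2 CPM against 8.03, 3.46 and 7.44. The groups were separate by a small margin (log2 fold change 0.75 ± 0.38, edgeR adjusted p = 0.271).

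Tcf7, which encodes the factor TCF1, was the 1 tested member whose FOXR2 libraries all lay below the Control libraries. It stood at 2.74, 2.59 and 1.82 CPM against 5.40, 9.48 and 4.59 (log2 fold change -1.44 ± 0.42, edgeR adjusted p = 0.103). This fitted direction was opposite to that of Nkd1 and Axin2 although all are listed as targets. Lef1, Lgr5 and Znrf3 had overlapping groups and were singled out after their values were seen. Lef1, the TCF/LEF factor that is itself a target, had 19, 0 and 39 counts in the FOXR2 libraries and 0, 11 and 0 in the Control libraries, so all of its counts came from 3 libraries (edgeR adjusted p = 0.382). Lgr5, an R-spondin receptor, stood at 14.0, 1.58 and 14.4 CPM against 4.92, 5.30 and 1.86 (edgeR adjusted p = 0.350). FOXR2 replicate 2 was thus the lowest of its group for Nkd1, Axin2, Lgr5 and Lef1. Among the other tested targets, the lowest FOXR2 library was replicate 3 for Nkd2 and Tcf7, replicate 1 for Apcdd1 and replicate 2 for Znrf3. Znrf3, a ubiquitin ligase that removes Frizzleds from the cell surface, was at 9.17 to 12.6 CPM in the FOXR2 group and 7.96 to 14.9 in the Control group (log2 fold change 0.05 ± 0.33, edgeR adjusted p = 0.947).

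Rnf43, Notum and Sp5, the remaining targets, failed the filter. Rnf43, the partner ligase of Znrf3, had 0 to 3 counts per library. Notum, an enzyme that strips the lipid from WNT, had 1 to 8 counts. Sp5, a transcription factor gene, had 1, 10 and 8 counts in the FOXR2 libraries and 4, 3 and 2 in the Control libraries. At this depth no difference was detectable in these genes, and 38.1% of the exon length of Notum overlaps transcripts of the other strand.

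**Figure D2:**
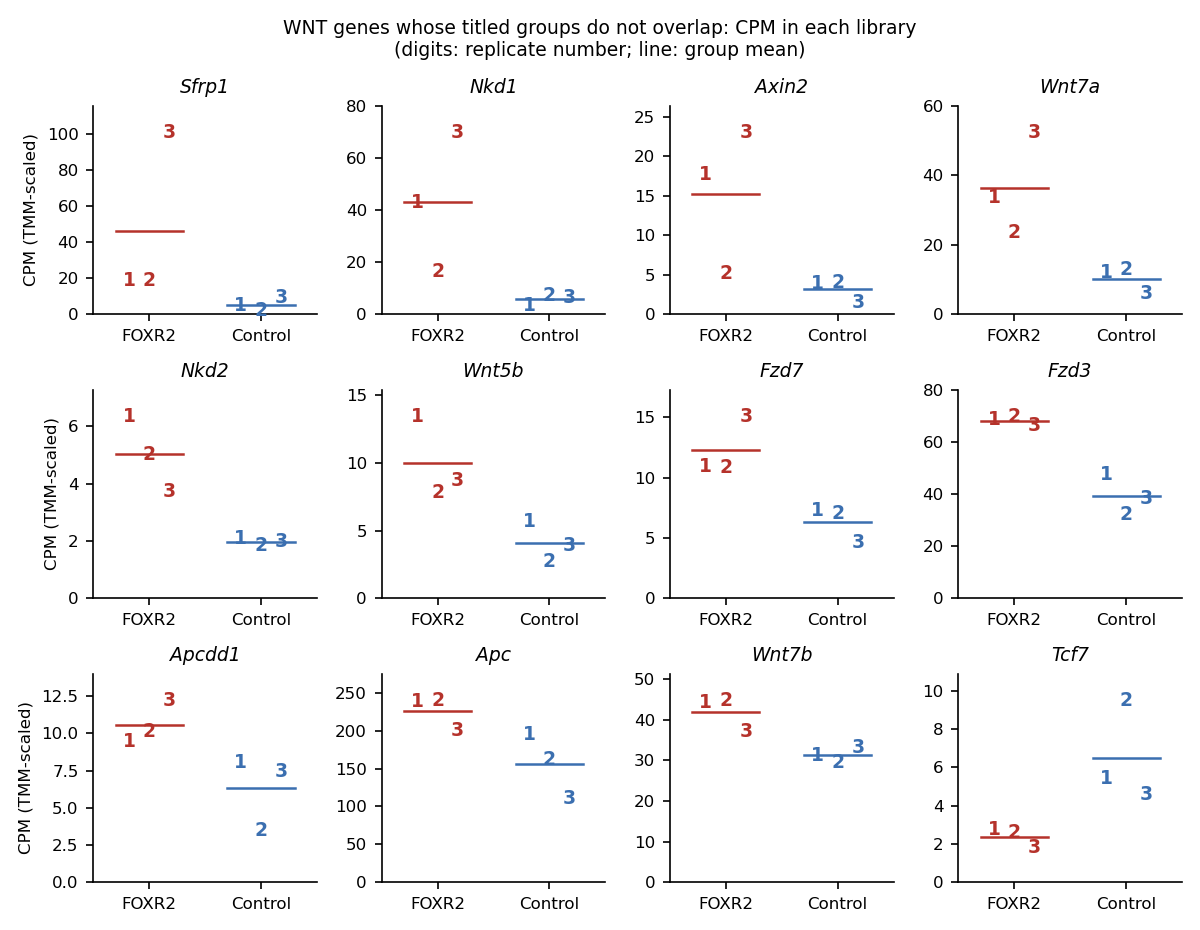
CPM (y axis, from 0) in each library for the 12 tested members whose titled groups do not overlap. Digits are replicate numbers and lines are group means. FOXR2 replicate 3 is the highest for Sfrp1, Nkd1, Axin2 and Wnt7a, and Tcf7 alone is higher in the Control group.

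Markers of vessels and microglia were read beside these genes. The 8 endothelial markers summed to 18.9, 17.6 and 4.52 CPM in the FOXR2 libraries and to 4.35 to 5.58 in the Control group. Cldn5 and Cdh5 were at no more than 0.190 and 1.52 CPM, while Flt1 reached 12.2. Vwf was at 3.59, 6.26 and 3.14 CPM in the FOXR2 libraries and 1.14, 0.775 and 2.38 in the Control libraries. Of the 8 markers 3 were tested, 2 of these were fitted above 0 and 0 were called. FOXR2 replicate 3, with the most Axin2 and Nkd1, had the fewest endothelial counts of its group. FOXR2 replicate 2, which held nearly all microglial counts, had the least Axin2 and Nkd1 of its group. Markers of immature neurons summed to 621 to 774 CPM in the FOXR2 group and 215 to 399 in the Control group. Markers of astrocytes summed to 490 to 668 CPM against 350 to 446. These sums and that of the precursor markers did not overlap between the titles, as for Nkd1 and Axin2. Those of mature neuron markers overlapped, at 66.0 to 246 CPM in the FOXR2 group and 40.4 to 88.9 in the Control group. Of 6 tested mature neuron markers, 1 was called and 4 were fitted above 0. Of the single markers, 0 of 8 were called for precursors, 0 of 7 for immature neurons and 1 of 7 for astrocytes. Fitted above 0 were 6 of 8 for precursors, 7 of 7 for immature neurons and 4 of 7 for astrocytes (50.7% of all genes tested). Among astrocyte markers, Aldh1l1 was lower in each FOXR2 library, at 18.2, 66.7 and 12.5 CPM against 145, 95.7 and 78.4. Slc1a2 was higher in each, at 73.9, 76.1 and 96.9 CPM against 19.5, 22.2 and 32.3. Slc1a3, an astrocyte and precursor glutamate transporter singled out after its values were seen, was at 433, 179 and 449 CPM in the FOXR2 libraries and 199, 209 and 103 in the Control libraries, so FOXR2 replicate 2 was the lowest of its group here too. No other astrocyte marker of the list had this order. Within the FOXR2 group, Gfap, Aqp4, Aldh1l1 and Gja1 were highest in replicate 2, and Slc1a2 and S100b lay in between there. The part of these cell types in the differences was not tested. In bulk tissue, fewer cells of a type and less RNA per cell cannot be told apart.

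The ligands were led by Wnt7a and Wnt7b. None of the 8 tested ligands was called, and 6 of them had a fitted value above 0 (median 0.67). Wnt7a stood at 33.5, 23.6 and 52.2 CPM in the FOXR2 libraries and 11.99, 13.0 and 5.93 in the Control libraries. Each FOXR2 library lay above each Control library. The log2 fold change was 1.82 ± 0.41 (edgeR adjusted p = 0.0615), a 3.54-fold difference that just missed the threshold. Wnt7b, its close paralog, was steadier, at 44.2, 44.6 and 37.1 CPM against 31.2, 29.6 and 33.2 (log2 fold change 0.42 ± 0.17, edgeR adjusted p = 0.190). Thus there were 75.9, 52.9 and 141 Wnt7a counts per 100 Wnt7b counts in the FOXR2 libraries, and 38.4, 44.0 and 17.8 in the Control libraries.

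Wnt5b, usually counted as a ligand of beta-catenin-independent signaling, stood at 13.4, 7.78 and 8.68 CPM against 5.70, 2.74 and 3.89. Its groups did not overlap (log2 fold change 1.27 ± 0.40, edgeR adjusted p = 0.114). Its relative Wnt5a and 4 others, Wnt4, Wnt2b, Wnt3 and Wnt9a, had overlapping groups and log2 fold changes of -0.23 to 2.11. The other 11 ligands failed the filter. Wnt2 and Wnt11 had 0 to 9 counts per library. Wnt6 reached 40 counts in FOXR2 replicate 3 and 3 to 11 elsewhere. Wnt3a and Wnt8a had 0 counts in 6 of 6 libraries, which allows up to 0.174 to 0.219 CPM in a library, and Wnt1, Wnt10a, Wnt10b, Wnt16, Wnt8b and Wnt9b had at most 3 counts in any library.

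Per kilobase of exon, on which genes can be set side by side, the summed level of the 19 ligands was 27.2, 21.7 and 32.2 CPM per kb in the FOXR2 libraries and 14.1, 12.9 and 12.3 in the Control libraries. Wnt7a made up 38.9%, 34.3% and 51.2% of this sum in the FOXR2 libraries and 26.8%, 31.8% and 15.2% in the Control libraries. Wnt7b made up 33.2%, 42.0% and 23.5% against 45.2%, 46.9% and 55.2%. Wnt7b was the most abundant ligand in the 3 Control libraries and in FOXR2 replicate 2, while Wnt7a was the most abundant in FOXR2 replicates 1 and 3. This order depended on gene length. With the longest transcript in place of the union of exons, Wnt7b led in FOXR2 replicate 1 too, with 40.7% against 33.1% for Wnt7a, and Wnt7a led in FOXR2 replicate 3 alone (45.5% against 30.1%). Over all libraries Wnt7b (7.48 CPM per kb) and Wnt7a (7.37) were followed by Wnt5b (2.65) and Wnt5a (0.742).

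**Figure D3:**
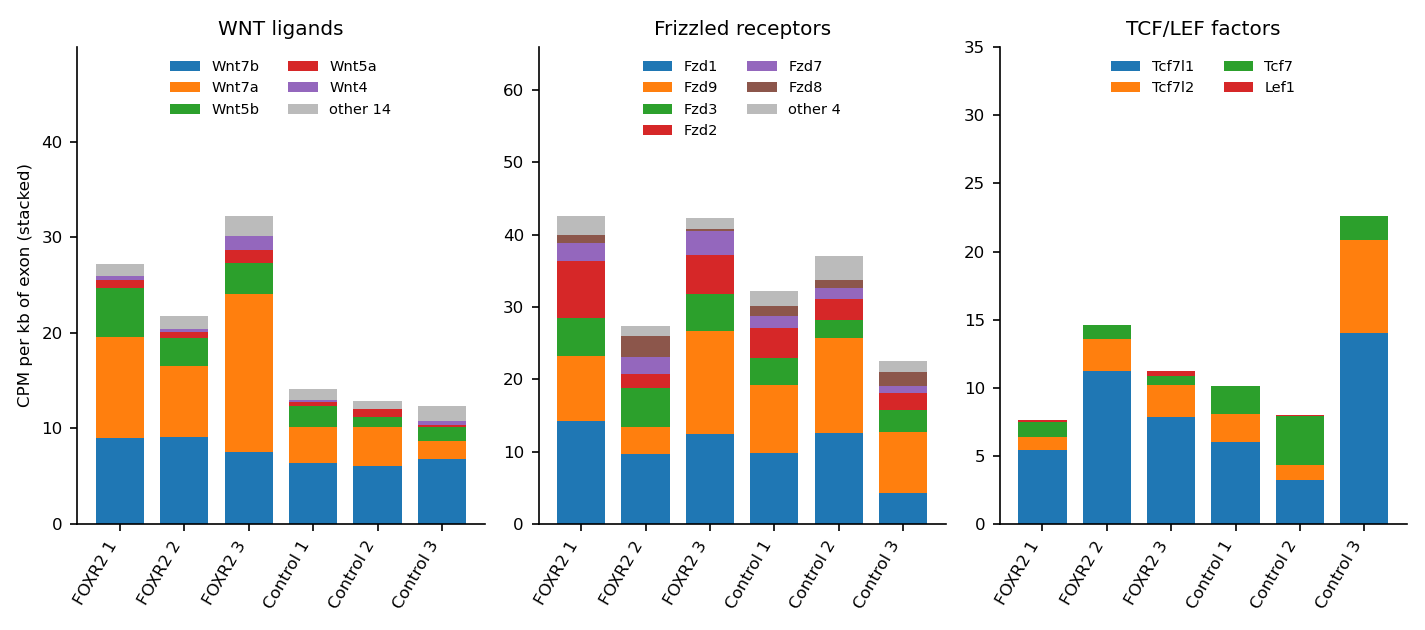
Stacked CPM per kb of exon (y axis) in each library for the 19 ligands, the 10 Frizzleds and the 4 TCF/LEF factors. The ligand bars of the FOXR2 libraries reach 21.7 to 32.2 and those of the Control libraries 12.3 to 14.1, while the bars of the other panels overlap between the groups.

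Of the receptors, 0 of 11 tested were called, 6 had a fitted value above 0 and the median log2 fold change was 0.21. Fzd3, a Frizzled known for axon guidance, had the smallest p. It stood at 68.6, 69.8 and 66.3 CPM in the FOXR2 libraries and 47.6, 32.2 and 38.4 in the Control libraries. The FOXR2 libraries were nearly equal and the Control libraries lay below them (log2 fold change 0.79 ± 0.19, edgeR adjusted p = 0.0722). Fzd7, a receptor linked to stem cell maintenance, was at 10.9, 10.8 and 15.0 CPM against 7.32, 7.03 and 4.65 (log2 fold change 0.95 ± 0.31, edgeR adjusted p = 0.1251). Fzd4, the Norrin receptor of vessels, was at 7.24, 4.43 and 4.67 CPM against 6.42, 11.98 and 6.22, with overlapping groups (log2 fold change -0.59 ± 0.40, edgeR adjusted p = 0.400).

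Per kilobase, Fzd1 (10.5 CPM per kb over all libraries) and Fzd9 (9.68) were the leading receptors. Fzd1 stood at 59.6, 40.5 and 52.4 CPM in the FOXR2 libraries and 40.9, 52.4 and 17.8 in the Control libraries (edgeR adjusted p = 0.499). Fzd9 stood at 20.6, 8.48 and 32.5 CPM against 21.8, 30.3 and 19.5 (edgeR adjusted p = 0.801). Both pairs of groups overlapped. Summed over the 10 Frizzleds, the level was 42.5, 27.3 and 42.3 CPM per kb in the FOXR2 libraries and 32.1, 37.0 and 22.5 in the Control libraries. Fzd2, Fzd5, Fzd6 and Fzd8 also had overlapping groups, with log2 fold changes of -0.77 to 0.70. Fzd10, with 0 to 38 counts per library, failed the filter. The co-receptor Lrp6 was at 49.1 to 78.2 CPM in the FOXR2 group and 51.6 to 64.9 in the Control group. Lrp5, singled out after its values were seen, was at 86.1, 18.2 and 58.1 CPM against 43.7, 59.3 and 37.8 (edgeR adjusted p = 0.829). For Lrp5, as for Fzd9, FOXR2 replicate 2 was the lowest of all libraries.

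Secreted inhibitors varied widely between libraries of 1 group. Of the 4 tested, 0 were called and 3 had fitted log2 fold changes of 2.95 to 3.12. Sfrp1, a decoy that resembles the WNT-binding part of Frizzled, stood at 18.9, 18.5 and 101 CPM in the FOXR2 libraries and 4.74, 1.97 and 9.18 in the Control libraries. The groups did not overlap, and FOXR2 replicate 3 was far above the rest (log2 fold change 3.12 ± 0.85, edgeR adjusted p = 0.0893). Without that library the log2 fold change was 1.82 (edgeR adjusted p = 0.202).

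Dkk3, a divergent Dickkopf whose link to WNT is debated, stood at 1.501, 31.8 and 47.4 CPM against 3.72, 1.37 and 5.34. FOXR2 replicate 1 was within the Control range, and the log2 fold change of 2.95 ± 1.07 (edgeR adjusted p = 0.151) came from the other 2 FOXR2 libraries. Wif1, which binds WNT outside the cell, was at 3.91, 0.506 and 56.6 CPM against 1.38, 1.79 and 4.36. The log2 fold change of 3.01 ± 1.44 (edgeR adjusted p = 0.245) came from FOXR2 replicate 3 alone and was -0.18 without it (edgeR adjusted p = 0.934). Sfrp2, another decoy of the same family, was at 0.886 to 4.502 CPM in the FOXR2 group and 2.58 to 5.42 in the Control group. Dkk1, Dkk2 and Sfrp5 failed the filter with at most 10 counts in any library.

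**Figure D4:**
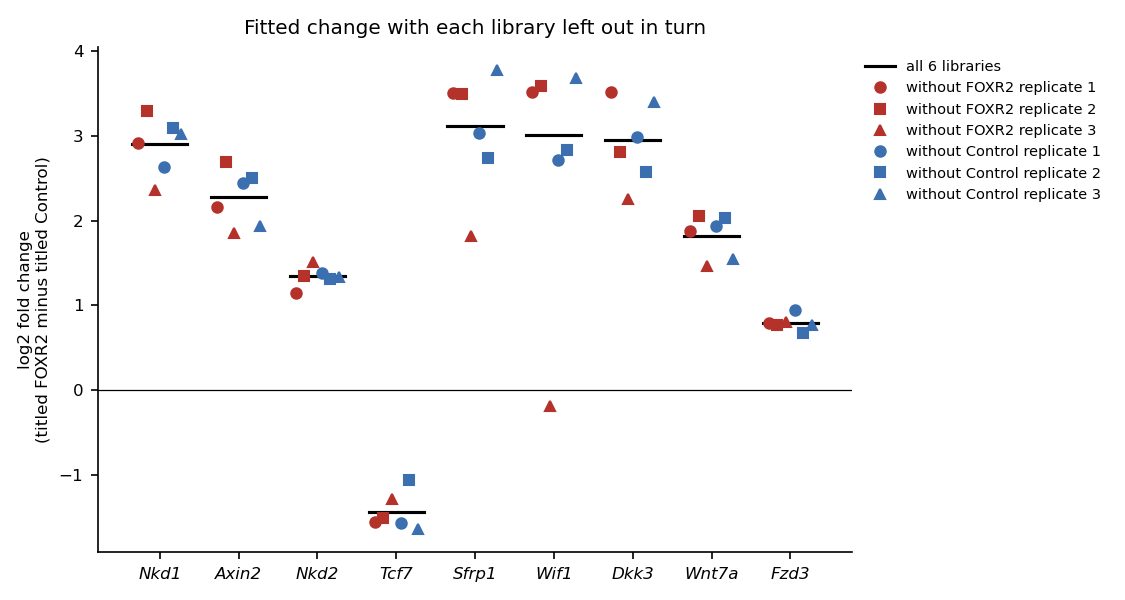
Fitted log2 fold change (y axis) of 9 members with all libraries (black line) and with each library left out in turn (symbols). Wif1 falls to -0.18 and Sfrp1 to 1.82 without FOXR2 replicate 3, while Fzd3 stays at 0.67 to 0.94 and Nkd2 at 1.145 to 1.52.

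None of the 5 core transducers was called, and their median log2 fold change was 0.07. Ctnnb1, the gene of beta-catenin, was the most abundant member at 121 CPM per kb over all libraries. It stood at 772, 566 and 652 CPM in the FOXR2 libraries and 619, 548 and 616 in the Control libraries, with overlapping groups (log2 fold change 0.16 ± 0.19, edgeR adjusted p = 0.635). Apc, the large scaffold of the destruction complex, stood at 239, 239 and 200 CPM against 195, 162 and 110. Its groups were separate by a small margin (log2 fold change 0.54 ± 0.24, edgeR adjusted p = 0.216). Exons of Ctnnb1 (14.6% of their length), Lef1 (13.7%), Wnt7b (6.61%) and Axin2 (3.8%) overlap transcripts of the other strand, whose reads cannot be told apart without strand, and strand use in counting is not stated. The level of the transcripts does not measure beta-catenin protein, which is what the pathway controls.

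Among the TCF/LEF factors, Tcf7l1, mostly a repressor, led in 5 of 6 libraries, with 58.9% to 76.7% of their summed level per kb. In Control replicate 2 it held 40.3% and Tcf7 45.0%. With the longest transcript as gene length that exception turned, since Tcf7l1 held 38.7% there against 35.6% for Tcf7 and led in 6 of 6 libraries. Tcf7l2, which is also high in newly forming oligodendrocytes, stood at 9.004, 21.1 and 20.6 CPM in the FOXR2 libraries and 18.5, 9.65 and 59.7 in the Control libraries. Control replicate 3 was far above the rest, and the log2 fold change of -0.79 ± 0.66 (edgeR adjusted p = 0.4997) became 0.26 without it. Markers of mature oligodendrocytes summed to 220, 5172 and 1434 CPM in the FOXR2 libraries and to 1693, 285 and 3888 in the Control libraries. Both libraries lowest for these markers were lowest for Tcf7l2. At the top the orders differed, since FOXR2 replicate 2 was highest for the markers and far below Control replicate 3 for Tcf7l2. The part of mature oligodendrocytes in the level of Tcf7l2 was not tested. Tcf7l1 itself was at 21.1 to 43.9 CPM in the FOXR2 group and 12.7 to 55.1 in the Control group (edgeR adjusted p = 0.948).

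The wider pathway was read from a list of 79 other genes, of which 78 were rows of the table and 65 were tested. Tle2, a Groucho co-repressor that binds TCF/LEF factors, was the 1 gene called (0.908% of all genes were called higher). Tle2 rose from 18.5, 13.0 and 16.0 CPM in the Control libraries to 49.3, 31.8 and 44.7 in the FOXR2 libraries (log2 fold change 1.41 ± 0.25, edgeR adjusted p = 0.0438). Its adjusted p was 0.0835 to 0.171 without FOXR2 replicate 1 or 3 or any Control library, and 0.0447 without FOXR2 replicate 2. Fitted values lay above 0 for 47 of the 65, with a median of 0.34, and the groups did not overlap in 23 (35.4%, background 30.3%).

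Planar polarity genes, which serve beta-catenin-independent signaling, held 2 of the next 4 genes by p. Prickle2 stood at 44.4, 22.4 and 59.98 CPM in the FOXR2 libraries and 11.8, 6.68 and 12.9 in the Control libraries (edgeR adjusted p = 0.0565). Celsr3, an adhesion receptor of the same system, stood at 14.9, 10.4 and 7.88 CPM against 3.30, 2.92 and 1.34 (edgeR adjusted p = 0.0577). Of the 10 planar polarity genes, all tested, 8 had fitted values above 0 (50.7% of all genes tested did), 4 were higher in the FOXR2 group without overlap (13.1% of all genes tested were), and 0 were called.

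In the cytoplasm, Csnk1e, a kinase that acts on Dishevelled, was at 156, 192 and 190 CPM against 94.3, 108 and 114 (edgeR adjusted p = 0.0655). Dact1, a Dishevelled antagonist, was at 23.9, 14.6 and 20.0 CPM against 7.495, 6.56 and 2.67 (edgeR adjusted p = 0.0685). Of 20 cytoplasmic genes 11 were fitted above 0 and 9 below, and 0 were called. Without overlap, 6 of the 20 were higher and 2 lower in the FOXR2 group. Of 9 tested further targets, which other pathways drive as well, 7 were fitted above 0, 4 were higher without overlap and 0 were called. Separation of this kind was thus seen in the cytoplasmic genes and further targets too and was not particular to the planar polarity genes. Over all genes tested, 13.1% were higher without overlap. R-spondins, the ligands that raise WNT sensitivity, failed the filter with 0 to 19 counts per library. Of the 6 genes listed as R-spondins and their receptors, Lgr4 was the 1 that passed, at 4.31 to 6.85 CPM in the FOXR2 group and 5.34 to 8.33 in the Control group.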

How the data were processed

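RNA of 6 tumors was sequenced after poly(A) selection with a strand-keeping kit, per the labels' protocols. The authors deposited raw read counts per gene symbol. The submitters' processing notes name TopHat, DESeq2 and the human build hg19 without versions or roles. Which counter and annotation were used, and whether strand was kept in counting, is not stated in the labels or headers, so no coordinates of the files are used. Groups and replicate numbers come from the titles.

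Here, counts were fitted with edgeR 4.0.16 (R 4.3.3): filterByExpr with a count minimum of 10, TMM factors, the quasi-likelihood F test of 3 against 3 libraries with no covariate, and Benjamini-Hochberg adjustment over all 13101 genes tested. Log2 fold changes use a prior count of 0.125. CPM are TMM-scaled, ± after a fold change is the SE and after a mean the SD. A gene is called at an adjusted p under 0.05. Levels per kilobase use the union of exons in GENCODE M21, matched by symbol for 54 of 54 members. The test was tried on simulated data first.

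The members, roles, gene lists and naming rule were chosen with earlier results of these data known. Named with values in every library were called members, in each role the 3 smallest p and the 2 highest levels per kb, and tested members of at least 1 CPM with separate groups. Of the other pathway genes, called ones and the 5 smallest p were named. Alternatives were total-count scaling, RLE factors, DESeq2 1.42.0, limma-voom (limma 3.58.1), all genes without a filter, the replicate number as a block, each library left out in turn, and the longest transcript as gene length. Animal sex as a covariate was added after seeing the data.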

Additional observations from a re-analysis of the deposited data

How the results depend on the processing

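The count of called members rested on 1 gene near the threshold. In place of 1 higher and 0 lower, DESeq2 called 8 members higher (Axin2, Dkk3, Fzd3, Nkd1, Nkd2, Sfrp1, Wnt5b and Wnt7a) and 1 lower (Tcf7), with 916 genes higher and 921 lower over all genes. RLE factors, total-count scaling, limma-voom and animal sex as a covariate gave 0 members, with an unadjusted p under 0.05 for 10 to 12. With each library left out, 0 to 1 members were called higher (9 to 13 at an unadjusted p under 0.05), and over all genes 1 to 123 were higher and 0 to 82 lower, where 119 and 181 were called with all libraries. Total-count scaling gave 119 lower, and sex as a covariate gave 7 higher and 0 lower. Of the other pathway genes, 1 was called higher and 0 lower with all libraries, DESeq2 called 10 and 2, the fits without 1 library called 0 to 2 higher, and sex as a covariate 0. The replicate numbers gave no sign of pairing in log2 CPM from which the mean of each gene in its group was subtracted. The correlations of these deviations were -0.0161, -0.241 and -0.0104 for same-numbered libraries and -0.198 to 0.249 for the other pairs. Deviations within a group are tied to each other, so these values are not independent. With the replicate block 0 genes were called in either direction by edgeR, members and other pathway genes included, and 2652 genes and 10 members had an unadjusted p under 0.05. Of the refits of single named genes, 292 kept direction and side of the threshold, 13 passed it, 17 lost it and 3 turned direction with 1 library left out: Wif1 ranged from -0.18 (without FOXR2 replicate 3) to 3.67, Tcf7l2 from -1.20 to 0.26 (without Control replicate 3) and Fzd9 from -0.72 to 0.15 (without FOXR2 replicate 2). The cause was not tested. Where a library is left out of a group of 3, the spread is pooled over the remaining 5. Members under about 10 counts a library are limited by depth.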

Other observations

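Co-receptors that pair Wnt7a and Wnt7b with Frizzled on vessels differed in level, with means over all libraries of 8.43 CPM for Adgra2 and 1.57 for Reck. Adgra2 (Gpr124) was at 12.01, 5.44 and 16.0 CPM in the FOXR2 libraries and at 4.62, 8.52 and 4.01 in the Control libraries, in replicate order (edgeR adjusted p = 0.269). Its partner Reck stood at 0.949 to 2.74 CPM in the FOXR2 group and 1.08 to 1.79 in the Control group (edgeR adjusted p = 0.672). Ror2, a receptor of Wnt5a and Wnt5b, was at 22.7 CPM in FOXR2 replicate 1 and at 0.803 to 7.69 in the other 5 libraries. Wls and Porcn, needed to secrete and to acylate every WNT ligand, were present in all libraries, at 45.5 to 113 and 14.0 to 31.2 CPM. These genes were chosen after their values were seen.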
